A study of Mus musculus with 6 samples.

Results

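Of the 33696 genes counted, 10 encode the cytosolic heat-shock chaperones described here: Hspa1a, Hspa1b, Hsph1, Hspa8, Hspa4l, Hsp90aa1, Hsp90ab1, Dnaja1, Dnajb1 and Hspb1. They were picked by symbol for being higher in the R403Q-EMPA libraries, so their difference between R403Q-EMPA and the other groups is a description and carries no test. The study profiled single nuclei from the left ventricle of male mice in 3 groups of 2 libraries. WT-CD mice were wild-type littermates on control diet. R403Q-CD mice, labelled Myh6+/R404Q (R403Q), carried the heterozygous myosin heavy chain mutation that models hypertrophic cardiomyopathy and ate the same control diet. R403Q-EMPA mice had the same genotype and a diet with empagliflozin, an inhibitor of the sodium-glucose cotransporter SGLT2, at 0.15 mg per g of diet, corresponding to 15 mg/kg. The labels give an age of 12 weeks in all groups and a start of the diets at 9 to 10 weeks, hence 2 to 3 weeks on diet, but their protocol also names a longer feeding period, so the time on diet is uncertain. No library here comes from wild-type mice on empagliflozin. The tissue was frozen, and the methods give n = 2 for the isolation of nuclei without saying whether each library was 1 heart. The p-values below therefore measure only the spread between these libraries, which may be technical.

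Chaperones bind unfolded protein and help it fold or reach degradation. Hsp70 proteins (Hspa1a, Hspa1b, Hspa8) hold hydrophobic stretches in a cycle driven by ATP. J proteins (Dnaja1, Dnajb1) deliver clients and start ATP hydrolysis, and Hsp110 proteins (Hsph1, Hspa4l) exchange the nucleotide so that the client is released. Hsp90 proteins (Hsp90aa1, Hsp90ab1) act later on kinases, steroid receptors and other clients, and the small heat-shock protein Hspb1 holds unfolded protein without ATP. Hspa8 and Hsp90ab1 are known as the constitutive forms of their families, and Hspa1a, Hspa1b and Hsp90aa1 as the inducible ones. Under heat or protein damage the transcription factor Hsf1 trimerises and binds heat-shock elements, repeats of the unit GAA in alternating orientation upstream of its targets.

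The promoters of 4 members are printed first, chosen after the search for elements. RefSeq windows on GRCm38.p6, 250 bases before to 50 after each start, were matched for 7 of the 10 genes, the others being Hspa8, Hsp90aa1 and Hsp90ab1. Hspa1a and Hspa1b are shown because they are near-copies, Hsph1 because it alone held a 3-unit element, and Hspb1 because it held 2 separate 2-unit elements. Sequences run 5′ to 3′ on the strand of the gene, and capitals mark each 2-unit element, GAANNTTC or TTCNNGAA.
Hspa1a, chr17:34972107-34972406, minus strand: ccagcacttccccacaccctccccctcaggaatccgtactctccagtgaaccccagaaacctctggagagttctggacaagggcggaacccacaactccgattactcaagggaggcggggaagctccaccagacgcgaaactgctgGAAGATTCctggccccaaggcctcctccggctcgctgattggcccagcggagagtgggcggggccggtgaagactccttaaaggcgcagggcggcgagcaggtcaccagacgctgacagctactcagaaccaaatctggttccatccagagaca
Hspa1b, chr17:34959189-34959488, minus strand: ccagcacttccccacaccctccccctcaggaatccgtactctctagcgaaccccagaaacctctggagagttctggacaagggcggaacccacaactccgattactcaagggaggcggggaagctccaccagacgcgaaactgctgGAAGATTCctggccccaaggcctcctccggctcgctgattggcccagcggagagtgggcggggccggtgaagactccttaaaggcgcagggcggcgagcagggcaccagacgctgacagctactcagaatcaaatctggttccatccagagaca
Hsph1, chr5:149636287-149636586, minus strand: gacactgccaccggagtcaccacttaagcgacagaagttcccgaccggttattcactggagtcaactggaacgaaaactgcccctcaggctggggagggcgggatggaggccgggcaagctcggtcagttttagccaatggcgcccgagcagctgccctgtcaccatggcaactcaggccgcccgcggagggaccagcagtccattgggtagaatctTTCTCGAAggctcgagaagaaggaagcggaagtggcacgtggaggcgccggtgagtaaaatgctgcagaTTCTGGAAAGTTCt
Hspb1, chr5:135887669-135887968, plus strand: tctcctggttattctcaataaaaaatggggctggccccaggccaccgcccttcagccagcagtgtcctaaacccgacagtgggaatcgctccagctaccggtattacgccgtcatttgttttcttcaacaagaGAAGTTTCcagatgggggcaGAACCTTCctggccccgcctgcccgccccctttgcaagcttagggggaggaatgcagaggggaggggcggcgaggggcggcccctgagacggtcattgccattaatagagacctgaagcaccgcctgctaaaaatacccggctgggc

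Both Hspa1 windows held 1 element, starting 104 bases before the start site. In Hsph1 the first element started 33 bases before the start site, and 2 overlapping ones at 36 and 41 bases after it formed the 3-unit element GAANNTTCNNGAA or its complement TTCNNGAANNTTC. The table holds 2 windows for Hsph1, and from the start site of the other, not printed, the same elements lay 54 bases before and 15 and 20 bases after. Hspb1 held its elements 117 and 97 bases before the start site. Each pattern was searched on both strands, and every 3-unit match contains overlapping 2-unit matches. The 3-unit element was found in 1 of the 7 members and in 0.662% of 27025 genes with a window. The 2-unit element was found in 5 of 7 members (Dnaja1, Hspa1a, Hspa1b, Hspb1 and Hsph1) and in 17.0% of all genes with a window. Neither pattern lay in the windows of Hspa4l and Dnajb1, which says only that these letters were not there.

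Hspa1a and Hspa1b could not be read as separate genes with certainty. Their coding sequences were 99.4% identical, the encoded proteins 99.8%, and the promoter windows 98.7%, whereas the sequences after the stop codon, 810 and 643 bases long, were 46.9% identical. Hsp90aa1 and Hsp90ab1 shared 75.5% of coding bases and Hspa1a and Hspa8 73.9%. The Hspa1 genes are therefore given mainly as their sum. In GENCODE vM21 on GRCm38 (the deposited counts were made on GRCm39), Hspa1a lies at chr17:34969190-34972156 and Hspa1b at chr17:34956436-34959238, both on the minus strand. Hspa1a is overlapped on the opposite strand by Gm20481, Dnaja1 (chr4:40722150-40737149) by Gm6297 and Smu1, and Hspa8 (chr9:40800984-40810087) holds small nucleolar RNA genes on its own strand.

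The libraries held 31787308 to 45397128 unique molecular identifiers (UMIs, counted transcripts), and 46005 of 69249 barcodes were kept as nuclei, 6409 to 9514 a library with a median of 2663 to 4065 UMIs. Clusters were named from fixed marker genes without use of the chaperones, and 10 classes of 45903 nuclei were analysed: endothelial-like, endocardial-like, lymphatic endothelial-like, fibroblast-like, pericyte-like, smooth muscle-like, cardiomyocyte-like, myeloid-like, lymphoid-like and epicardial-like, written without the suffix from here on. No cluster took the name of fat cells, although the labels mention epicardial fat. The largest classes were fibroblasts (14145 nuclei) and endothelial cells (12478), and the smallest were epicardial (245) and smooth muscle cells (283), with as few as 27 nuclei of a class in a library. Levels (CPM) are UMIs of a gene per 1000000 UMIs of a class in a library, scaled by edgeR's TMM factors. They are compared between classes and libraries, not between genes, since transcript recovery differs by gene. Any 2 libraries shared 23 to 56 cell barcodes, 0.217% to 0.489% of the smaller library. The libraries also differed in ways that moved with the groups. Barcodes over the mitochondrial limit were 21.9% and 18.6% of all barcodes of a library in WT-CD, 26.8% and 32.3% for R403Q-CD, and 34.0% and 38.5% for R403Q-EMPA. Over all nuclei kept, without TMM scaling, 7 of 12 circadian clock genes were below and 4 above all control-diet libraries in both R403Q-EMPA libraries, and Per2 overlapped. Arntl, which encodes the core activator BMAL1, was at 4.52 to 10.4 CPM in the control-diet libraries and 31.5 and 36.8 in R403Q-EMPA, and its output Dbp at 37.5 to 91.5 against 16.5 and 8.81. The clock list summed to 1035 to 1274 CPM and to 827 and 825. Over all nuclei kept, none of 10 immediate early genes, which respond to tissue handling, separated R403Q-EMPA from the control-diet libraries, and they summed to 181 to 273 CPM and to 278 and 217. By class, edgeR called endocardial Egr1 lower in R403Q-EMPA than in R403Q-CD (-1.33 ± 0.21, adjusted p = 0.0130) and WT-CD (-1.07 ± 0.21, adjusted p = 0.0239), at 48.7, 41.9, 52.0 and 57.0 CPM and then 23.2 and 18.7. Cardiomyocyte Atf3 was called higher than in WT-CD (1.49 ± 0.23, adjusted p = 0.0106), among 64 pairs tested in each comparison. This gene read 7.40, 7.80, 40.8 and 49.2 CPM on control diet, WT-CD first, then 25.9 and 17.8. Both R403Q-EMPA libraries thus lay below both R403Q-CD libraries, a difference that was not called. The part of the time of day, of mitochondrial content and of handling in the differences below was not tested.

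At base, in the 4 libraries on control diet, the chaperones other than the Hspa1 genes were counted in every class. Summed over the 10 genes, the base level was highest in endothelial cells (709 CPM on average), followed by endocardial (692), lymphatic endothelial (671), epicardial (609), smooth muscle (566), pericyte (525), fibroblast (513), myeloid (510), cardiomyocyte (495) and lymphoid cells (488). The ranges of the 4 libraries overlapped between all neighbours in this order. Behind the flat sum, single genes differed between classes. A class was compared with the mean of the other 9 in a fit over all genes with class and library as terms. Of 80 pairs of gene and class, 20 were higher and 17 lower at an adjusted p below 0.05, where 25.0% of all pairs tested were called higher and 17.4% lower. The shares among the chaperones thus lay near those of genes at large, and the differences below describe the genes and not a property of the group. Hspa1a and Hspa1b did not pass the low-count filter of this fit. Nuclei of all classes in a library came from 1 preparation, so the classes differ within libraries.

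**Figure D1:**
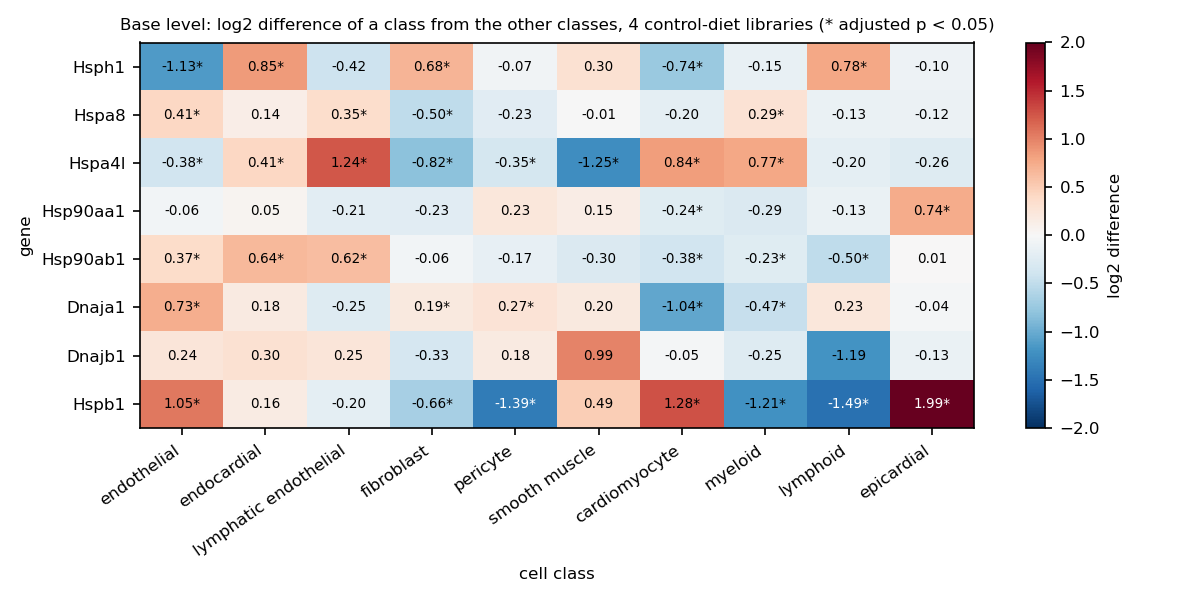
Base level of 8 chaperone genes, as the log2 difference between a class and the mean of the other classes in the 4 control-diet libraries. Rows are genes, columns classes, colour and number the difference, and asterisks mark an adjusted p below 0.05. Hspb1 spans the widest range, from -1.49 in lymphoid to 1.99 in epicardial cells.

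Hspb1, the small heat-shock protein that also caps actin filaments, varied most at base. It was higher in epicardial cells by 1.99 ± 0.29 (SE) on the log2 scale (edgeR quasi-likelihood, adjusted p = 3.13e-07), in cardiomyocytes by 1.28 ± 0.12 and in endothelial cells by 1.05 ± 0.13. The epicardial libraries read 148, 53.8, 87.5 and 37.6 CPM and the cardiomyocyte libraries 51.8, 30.4, 68.5 and 66.1, in the order WT-CD 1 and 2, R403Q-CD 1 and 2. Hspb1 was lower in lymphoid (-1.49 ± 0.53), pericyte (-1.39 ± 0.23), myeloid (-1.21 ± 0.26) and fibroblast cells (-0.66 ± 0.16). Pericytes read 11.6, 5.37, 12.1 and 9.66 CPM, below every epicardial, cardiomyocyte and endothelial value. The lymphoid call was lost without either WT-CD library or R403Q-CD replicate 1.

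The Hsp110 genes were called in opposite directions in cardiomyocytes and fibroblasts and in the same direction in endothelial and endocardial cells. Hspa4l was higher in lymphatic endothelial cells (1.24 ± 0.12, edgeR adjusted p = 8.05e-12), cardiomyocytes (0.84 ± 0.08), myeloid (0.77 ± 0.11) and endocardial cells (0.41 ± 0.11). It was lower in smooth muscle (-1.25 ± 0.35), fibroblasts (-0.82 ± 0.10), endothelial cells (-0.38 ± 0.10) and pericytes (-0.35 ± 0.11). Its levels were 77.4, 95.1, 103 and 107 CPM in lymphatic endothelial cells and 22.5, 29.0, 28.1 and 26.2 in fibroblasts, without overlap. Hsph1 was lower in endothelial cells (-1.13 ± 0.14, edgeR adjusted p = 1.33e-09) and cardiomyocytes (-0.74 ± 0.13), and higher in endocardial cells (0.85 ± 0.14), fibroblasts (0.68 ± 0.10) and lymphoid cells (0.78 ± 0.29). Endothelial and endocardial cells, both of which line blood spaces, read 13.9, 7.32, 14.5 and 10.1 CPM against 32.4, 26.8, 55.1 and 44.8 of Hsph1. Single libraries decided some calls: endocardial Hspa4l was not called without R403Q-CD replicate 2, smooth muscle and pericyte Hspa4l without WT-CD replicate 1, and lymphoid Hsph1 without WT-CD replicate 1 or R403Q-CD replicate 1.

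Dnaja1, a J protein that works with Hspa8, was lower in cardiomyocytes by -1.04 ± 0.08 (edgeR adjusted p = 1.11e-15) and in myeloid cells by -0.47 ± 0.10, and higher in endothelial cells by 0.73 ± 0.07. Cardiomyocytes held 59.7, 36.4, 87.1 and 59.6 CPM and endothelial cells 181, 137, 259 and 164. Smaller positive differences in pericytes (0.27 ± 0.08) and fibroblasts (0.19 ± 0.07) were lost without R403Q-CD replicate 2, the former also without R403Q-CD replicate 1 and the latter without either WT-CD library. The Hsp90 gene Hsp90ab1 was higher in endocardial (0.64 ± 0.08), lymphatic endothelial (0.62 ± 0.09) and endothelial cells (0.37 ± 0.07), and lower in lymphoid (-0.50 ± 0.15), cardiomyocyte (-0.38 ± 0.07) and myeloid cells (-0.23 ± 0.09). Its partner Hsp90aa1 was higher in epicardial cells (0.74 ± 0.26) and lower in cardiomyocytes (-0.24 ± 0.11). Both Hsp90aa1 calls and the myeloid Hsp90ab1 call were lost without either WT-CD library or R403Q-CD replicate 2, and the lymphoid Hsp90ab1 call without R403Q-CD replicate 1. For cardiomyocytes both Hsp90 differences turned positive when barcodes with a high mitochondrial share were kept, to 0.14 (edgeR adjusted p = 0.366) for Hsp90aa1 and 0.69 (adjusted p = 3e-06) for Hsp90ab1. Hspa8 was higher in endothelial (0.41 ± 0.09), lymphatic endothelial (0.35 ± 0.14) and myeloid cells (0.29 ± 0.12) and lower in fibroblasts (-0.50 ± 0.10), and the lymphatic and myeloid calls did not hold without WT-CD replicate 2 or R403Q-CD replicate 2, nor the lymphatic call without WT-CD replicate 1. Dnajb1 had only lymphoid cells at an unadjusted p below 0.05 (-1.19 ± 0.59, edgeR adjusted p = 0.128).

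The Hspa1 pair was close to the detection limit at base. Its mean level was 6.49 CPM in lymphatic endothelial cells, 4.82 in epicardial, 3.92 in pericyte, 2.72 in endocardial, 2.61 in smooth muscle, 2.39 in fibroblast, 1.76 in endothelial, 1.13 in myeloid and 0.650 in cardiomyocyte cells, with 0 UMIs in lymphoid cells. Neighbours in this order overlapped, other than cardiomyocytes and lymphoid cells. The smooth muscle mean rested on 2 UMIs in a single library, and the whole endothelial class held 9, 9, 10 and 13 UMIs per library.

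In R403Q-EMPA the Hspa1 pair was above all 4 control-diet libraries in the 9 classes other than lymphoid cells, where it had 1 UMI in each R403Q-EMPA library and 0 in the others. Across the members, 89 of 100 pairs of gene and class lay above all 4 control-diet libraries in both R403Q-EMPA libraries and 0 lay below, where 10.5% of all gene and class pairs lay above. Nothing is read from that contrast, because the genes were picked for it. What follows gives its size by gene and class as the rise, the log2 of the mean R403Q-EMPA level over the mean R403Q-CD level. Among all genes of a class the fitted median difference of these groups was between -0.01 and 0.01. A rise could be formed for 96 pairs, all of them positive, with a median of 1.34. With the Hspa1 genes taken as a pair, 17 of 89 rises moved by over 1.5 times when 1 library of the contrast was left out. They were in smooth muscle, epicardial, lymphoid and lymphatic endothelial cells, other than those of the Hspa1 pair in cardiomyocytes and myeloid cells. Of these, 2 turned negative: epicardial Hsp90aa1 was -0.49 without R403Q-EMPA replicate 1, and smooth muscle Dnajb1 was -0.64 without R403Q-CD replicate 2 and -0.47 without R403Q-EMPA replicate 2.

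**Figure D2:**
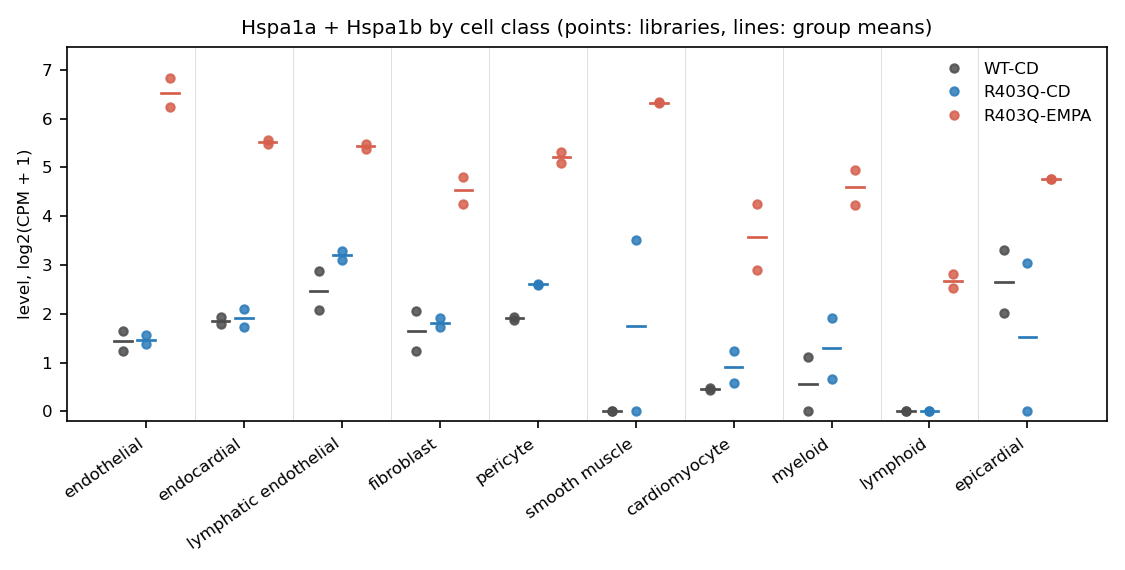
Level of Hspa1a plus Hspa1b by cell class, on the scale log2(CPM + 1). Points are libraries, short lines group means, and colours the 3 groups. Both R403Q-EMPA libraries sit above the 4 control-diet libraries, in lymphoid cells on 1 UMI each, most widely in endothelial cells (74.4 and 113 CPM against at most 2.12).

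Endothelial cells, which held little of the Hspa1 pair at base, reached the highest level. In them the WT-CD libraries read 2.12 and 1.37 CPM of the pair, the R403Q-CD libraries 1.59 and 1.96, and the R403Q-EMPA libraries 74.4 and 113. The mean was 52.7-fold that of R403Q-CD (95% counting interval 31.1 to 74.4, covering counting error only) and 53.5-fold that of WT-CD. Smooth muscle cells read 0, 0, 0 and 10.4 CPM and then 78.8 and 80.1, overlapping the endothelial values, on 19 and 8 UMIs. All 8 of the second library came from 1 nucleus, and the ratio of 15.2 has a counting interval of 3.14 to 108. With the chaperones among the clustering genes the smooth muscle rise went from 3.93 to 4.75, and on the share of thinned nuclei it was 0.36. Without R403Q-CD replicate 1 it was 2.96. Endocardial cells went from 2.46, 2.83, 2.33 and 3.26 CPM to 43.6 and 46.1, a ratio of 16.1. In lymphatic endothelial cells, highest at base, the pair was at 6.36, 3.22, 8.76 and 7.61 CPM and then 40.8 and 43.7, the smallest ratio at 5.16 (interval 2.66 to 10.9).

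Cardiomyocytes, the cells that carry the mutant myosin, stood low in the R403Q-EMPA order. They read 0.352, 0.400, 0.489 and 1.36 CPM on control diet and 18.1 and 6.46 in R403Q-EMPA, on 2, 2, 3, 10, 169 and 48 UMIs. The second R403Q-EMPA value, on 48 UMIs, lay above all control-diet cardiomyocyte values. It was near the lymphoid levels of 4.80 and 6.01 CPM, which rest on 1 UMI each, and the background level was not measured. Their ratio was 13.3 with a counting interval of 7.70 to 25.7 (a rise of 3.73, which was 2.82 without R403Q-EMPA replicate 1 and 4.66 without R403Q-CD replicate 2), and the R403Q-EMPA libraries differed from each other more than in other large classes. Fibroblasts read 3.15, 1.35, 2.30 and 2.78 CPM and then 26.9 and 18.1 (8.88-fold), and pericytes 2.82, 2.68, 5.13 and 5.04 and then 33.3 and 39.0 (7.11-fold). Myeloid cells read 1.17, 0, 0.597 and 2.75 CPM and then 29.99 and 17.7, 14.3-fold with an interval of 6.64 to 52.2. The myeloid rise of 3.83 was 3.10 without R403Q-CD replicate 1 and 5.30 without R403Q-CD replicate 2. Epicardial cells read 3.02, 8.96, 7.29 and 0 CPM and then 26.2 and 26.1, a rise of 2.84 that was 1.95 without R403Q-CD replicate 2. Lymphoid cells held 1 UMI in each R403Q-EMPA library, under the floor of 3 counts, and no ratio is given. In R403Q-EMPA the order by mean level was endothelial (93.5 CPM), smooth muscle (79.5), endocardial (44.9), lymphatic endothelial (42.2), pericyte (36.2), epicardial (26.2), myeloid (23.9), fibroblast (22.5), cardiomyocyte (12.3) and lymphoid (5.41). Endothelial and smooth muscle, endocardial and lymphatic endothelial, and the run from epicardial to cardiomyocyte overlapped between neighbours.

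Both near-copies were higher in R403Q-EMPA endothelial cells, the class with the most counts of the pair. Endothelial Hspa1a was at 1.18, 0.762, 1.11 and 1.20 CPM on control diet and 41.6 and 64.8 in R403Q-EMPA, and Hspa1b at 0.944, 0.610, 0.477 and 0.753 and then 32.8 and 47.7. The median rise over the classes that gave a ratio was 3.18 for Hspa1a and 3.28 for Hspa1b. Epicardial Hspa1a and smooth muscle Hspa1b had 0 UMIs in R403Q-CD and were at least 2.08-fold and 3.42-fold higher in R403Q-EMPA, taking the floor of 3 counts over the group. In cardiomyocytes Hspa1b had 1 and 0 UMIs in R403Q-CD, and its ratio of 57.2 (counting interval 11.5 to 2640) stood beside 9.07 for Hspa1a (5.02 to 18.0). In myeloid cells the ratios were 22.1 for Hspa1a (6.59 to 218) and 8.79 for Hspa1b (3.11 to 53.5), on 2 and 3 UMIs in R403Q-CD.

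The share of nuclei with an Hspa1 UMI says how often the pair was detected at this depth, not how many nuclei express it. In R403Q-EMPA the endothelial class held 669 Hspa1 UMIs in 2871 nuclei and 316 in 1275. The share of endothelial nuclei with at least 1 Hspa1 UMI was 0.537%, 0.392%, 0.431% and 0.638% on control diet and 17.8% (95% Wilson interval 16.5 to 19.3) and 18.1% (16.1 to 20.3) in R403Q-EMPA. In cardiomyocytes, whose nuclei were deeper (a median of 6889 to 12084 UMIs a library, against 2115 to 3422 in endothelial nuclei), the share was at most 1.02% and then 9.11% and 2.81%. None of the classes is known to lack these genes, and the lowest shares in R403Q-EMPA, those of lymphoid nuclei, were 1.64% and 1.82% (1 nucleus each, median depths of 2344 and 1934 UMIs, upper Wilson bounds of 8.72% and 9.61%). Lymphoid Hspa1 counts are too few to be told apart from background, which was not measured. After thinning every nucleus to 500 UMIs the endothelial share was 0% to 0.147% on control diet and 3.76% and 5.73% in R403Q-EMPA, and the cardiomyocyte share 0% to 0.089% and then 0.711% and 0.125%. Free cardiomyocyte RNA, read from Ttn in endothelial nuclei, was at 422, 468, 743, 787, 935 and 670 CPM, higher in both R403Q groups than in WT-CD. Ttn in fibroblast nuclei was also higher in both R403Q groups. In myeloid nuclei it was at 319, 571, 617, 612, 895 and 417 CPM, the last value below WT-CD replicate 2. The part of free RNA in the chaperone levels was not tested.

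Endothelial nuclei of R403Q-EMPA with an Hspa1 UMI also held more of the other chaperones. Without TMM scaling, Hsph1 was at 202 CPM in nuclei with and 143 in nuclei without an Hspa1 UMI in replicate 1, and at 211 and 137 in replicate 2. Hsp90aa1 was at 216 and 153 and at 301 and 194, Hspb1 at 180 and 138 and at 252 and 157. Hsp90ab1 and Hspa8 differed in the same direction, whereas Dnajb1 differed in opposite directions (34.2 against 27.0, then 22.3 against 30.1). Nuclei with a UMI were also deeper (median 3318 against 2969 UMIs, and 2298 against 2070), and the part of depth was not tested. Nuclei without an Hspa1 UMI still read 143 and 137 CPM of Hsph1, above the 6.47 to 14.2 CPM of the control-diet libraries on the same scale. In R403Q-EMPA cardiomyocytes Hspa4l was not higher in nuclei with an Hspa1 UMI (104.9 against 105.3 CPM, then 73.5 against 82.0). Dnajb1 again differed in opposite directions there (19.4 against 18.7, then 10.9 against 14.5). Hsph1, Hspa8, Hsp90aa1, Hsp90ab1, Dnaja1 and Hspb1 were higher in both libraries.

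**Figure D3:**
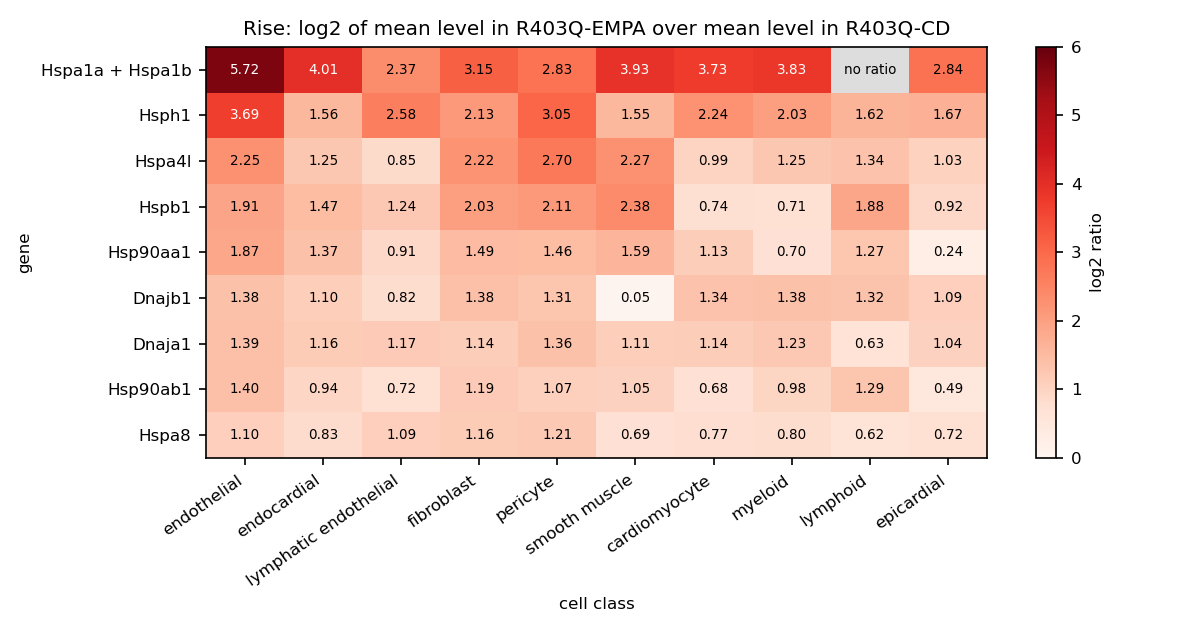
Rise of each chaperone gene (rows) in each cell class (columns), the log2 of the mean R403Q-EMPA level over the mean R403Q-CD level. Colour and number give the rise and grey marks a pair with no ratio. The endothelial column reaches 5.72 for the Hspa1 pair and 3.69 for Hsph1, and the epicardial Hsp90aa1 and smooth muscle Dnajb1 values are near 0.

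Across genes, the exchange factor Hsph1 followed the Hspa1 pair in size. Hsph1 had a median rise of 2.08 and was above all control-diet libraries in 10 of 10 classes. It was at 13.9, 7.32, 14.5 and 10.1 CPM and then 160 and 156 in endothelial cells, a 12.9-fold ratio. In pericytes it was at 14.8, 18.8, 28.0 and 24.8 CPM and then 223 and 214, and in cardiomyocytes at 9.16, 8.20, 19.4 and 19.9 and then 109 and 77.0. Endothelial cells, with the lowest mean of Hsph1 at base, thus reached the level of smooth muscle (162 and 160) and endocardial cells (162 and 132). The smallest rise, 1.55 in smooth muscle, had an R403Q-CD library at 88.9 beside 20.9, and was 2.98 and 0.90 without the first and the second of these. In that class both R403Q-CD libraries lay above WT-CD (fitted log2 difference 1.51 ± 0.56, edgeR adjusted p = 0.942). The ratio of R403Q-EMPA to WT-CD there was thus larger than the ratio to R403Q-CD. Epicardial Hsph1 rested on 3 UMIs in the second R403Q-EMPA library (26.1 CPM) beside 110 in the first, without which its rise was 0.29.

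The rise of Hspa4l ran from 0.85 in lymphatic endothelial cells to 2.70 in pericytes. In pericytes it read 25.7, 37.9, 42.9 and 32.8 CPM and then 237 and 255, a 6.49-fold ratio. Fibroblasts (22.5, 29.0, 28.1 and 26.2, then 114 and 139) and endothelial cells (34.7, 38.4, 35.3 and 32.4, then 146 and 177) had rises of 2.22 and 2.25. The classes highest at base had the smallest rises, 0.99 in cardiomyocytes (71.5, 81.8, 73.1 and 72.3, then 161 and 127) and 0.85 in lymphatic endothelial cells (77.4, 95.1, 103 and 107, then 160 and 218). Pericytes, among the lowest at base, held the highest R403Q-EMPA level and did not overlap lymphatic endothelial cells, the next class.

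Hspb1 had a rise of 2.38 in smooth muscle, on 9 UMIs in R403Q-CD, which was 4.11 without R403Q-CD replicate 1 and 1.61 without R403Q-EMPA replicate 2. Its smallest rise was 0.71 in myeloid cells. Endothelial cells read 71.5, 34.0, 44.4 and 44.0 CPM and then 152 and 181, and pericytes 11.6, 5.37, 12.1 and 9.66 and then 53.3 and 40.8. In cardiomyocytes it was at 51.8, 30.4, 68.5 and 66.1 and then 138 and 86.3, a rise of 0.74. Epicardial cells, highest at base, overlapped between groups (115 and 122 in R403Q-EMPA, 148 in the highest control-diet library), and so did lymphatic endothelial cells.

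The Hsp90 genes, Hspa8 and the J proteins had median rises of 0.82 to 1.32. Hsp90aa1 had a median of 1.32, from 0.24 in epicardial (141 and 61.0 CPM in R403Q-EMPA) to 1.87 in endothelial cells, where it read 57.8, 45.6, 59.2 and 48.6 CPM and then 172 and 221. Hsp90ab1 had a median of 1.01 and was above all control-diet libraries in 10 of 10 classes. Its endothelial values were 250, 160, 231 and 231 CPM and then 575 and 640. Hspa8, the constitutive Hsp70, had the smallest median, 0.82, from 0.62 in lymphoid cells to 1.21 in pericytes (78.6, 80.9, 115 and 108, then 281 and 233). Dnaja1 had a rise of 1.04 to 1.39 in 9 classes and of 0.63 in lymphoid cells. Cardiomyocytes, lowest for Dnaja1 at base, had the lowest mean again, with 163 and 160 CPM beside 511 and 598 in endothelial cells, although epicardial cells (189 and 148) overlapped them. Dnajb1 had few counts, a median of 1.31 and no separation in lymphatic endothelial, smooth muscle and epicardial cells.

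**Figure D4:**
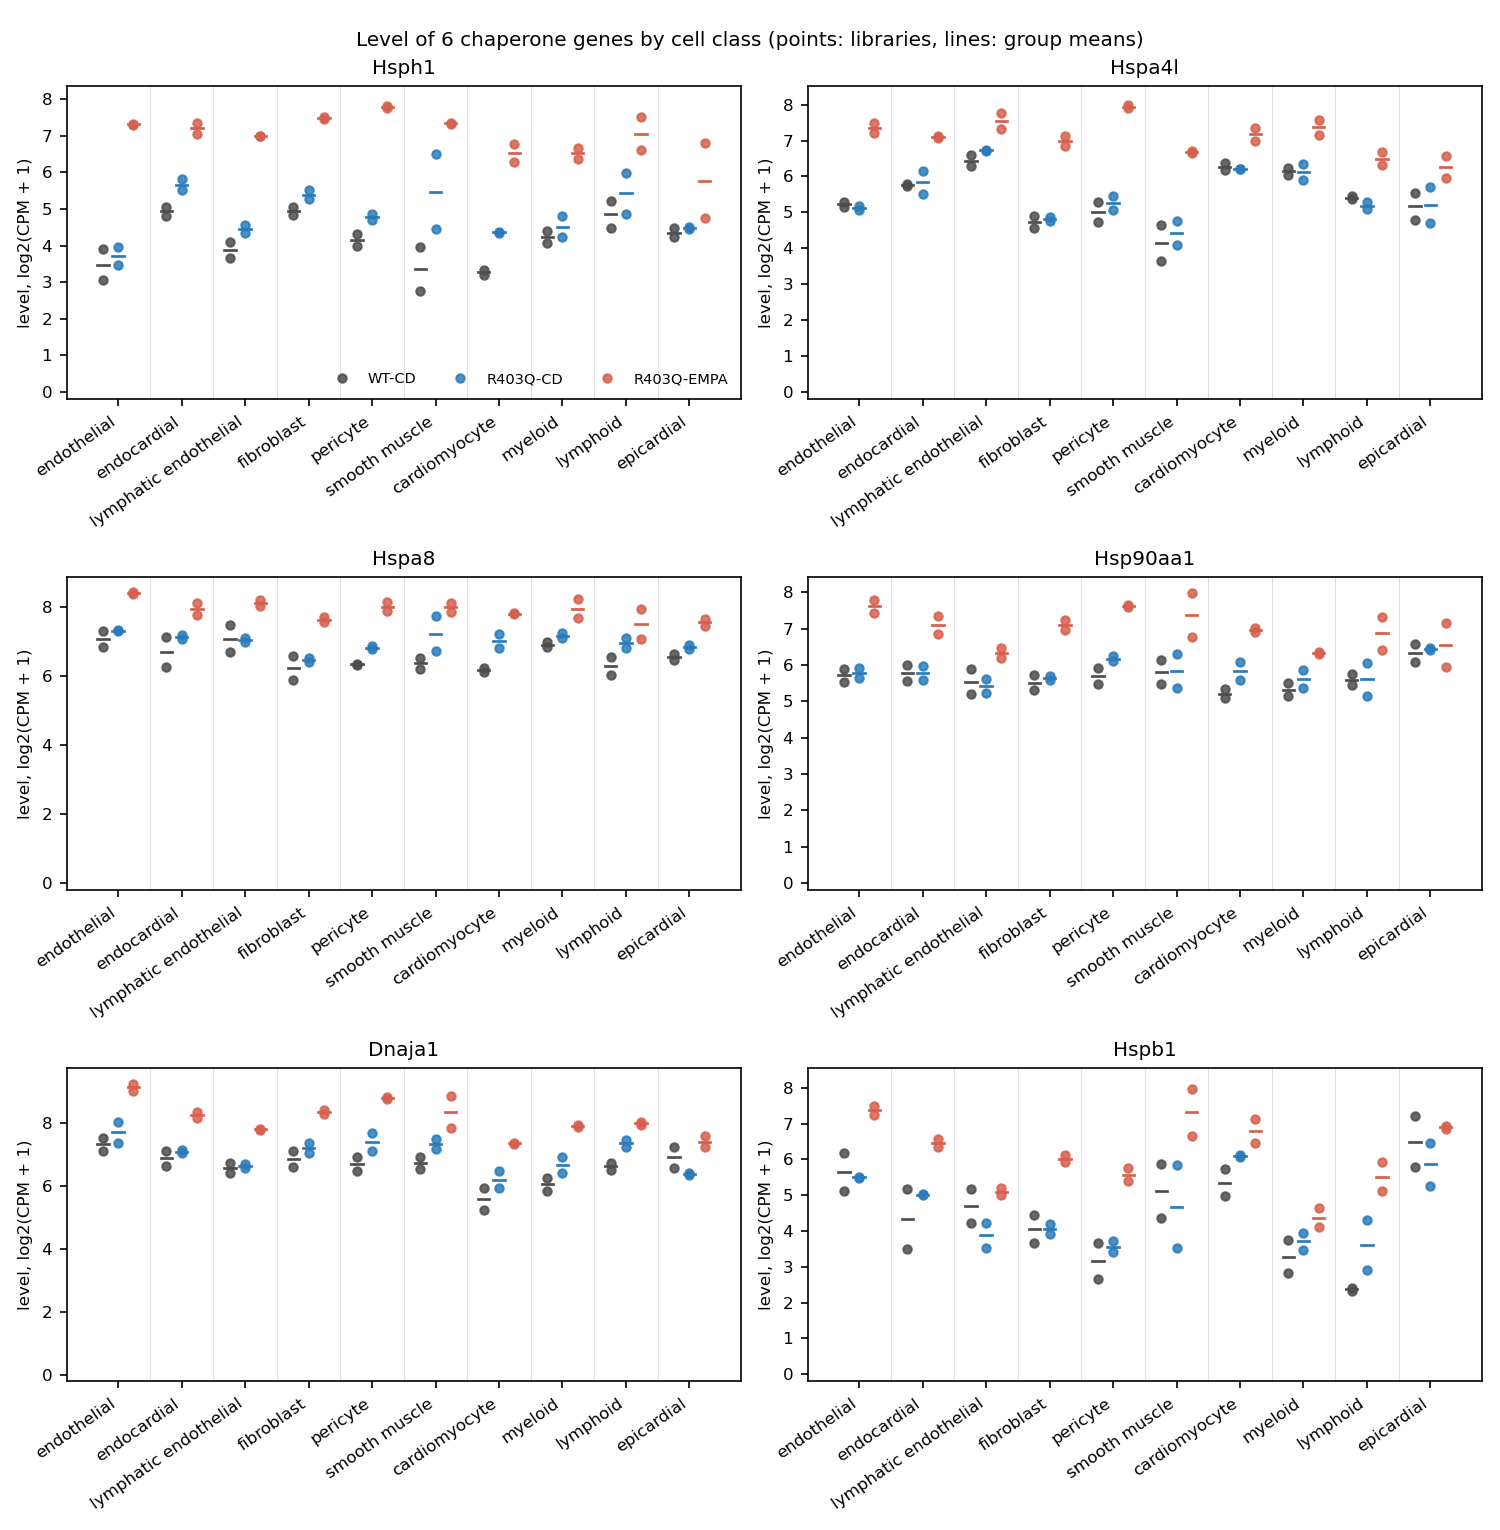
Levels of Hsph1, Hspa4l, Hspa8, Hsp90aa1, Dnaja1 and Hspb1 by cell class, 1 panel a gene, on the scale log2(CPM + 1). Points are libraries, short lines group means, and colours the groups. Pericyte Hspa4l goes from at most 42.9 to 237 and 255 CPM, while epicardial Hspb1 overlaps between the groups.

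By class, the median rise over the members was 1.89 in endothelial cells, 1.79 in pericytes, 1.76 in fibroblasts, 1.55 in smooth muscle, 1.31 in endocardial and lymphoid cells, 1.24 in myeloid cells, 1.13 in lymphatic endothelial cells and cardiomyocytes, and 1.03 in epicardial cells. All 10 genes lay above all control-diet libraries in endothelial, endocardial, fibroblast, pericyte, cardiomyocyte and myeloid cells, against 9 in smooth muscle, 8 in lymphatic endothelial, 7 in lymphoid and 5 in epicardial cells. The classes with fewer separated genes were those with the fewest nuclei. Summed over the 10 genes, endothelial cells went from 814 and 701 CPM in R403Q-CD to 2166 and 2448 in R403Q-EMPA (3.04-fold) and pericytes from 683 and 566 to 1818 and 1868 (2.95-fold). Cardiomyocytes went from 665 and 525 to 1222 and 1095 CPM (1.95-fold). WT-CD held 778 and 543 CPM in endothelial cells, 446 and 405 in pericytes and 426 and 365 in cardiomyocytes. Against WT-CD the ratios were 3.49, 4.33 and 2.93, so that pericytes and not endothelial cells came first. At base endothelial cells and pericytes overlapped with cardiomyocytes, and in R403Q-EMPA both lay above them.

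Finer clusters within a class mostly gave the same direction, with exceptions. The fibroblast cluster led by Cilp and Postn overlapped between groups, at 6.10, 6.56, 10.4 and 13.6 CPM of the Hspa1 pair and then 36.3 and 12.2. A small myeloid cluster read 0 in the second R403Q-EMPA library and 16.5 in the second R403Q-CD library, on 5 and 18 nuclei, and a small lymphoid cluster read 0 throughout. Among endothelial clusters, on the same scale, CPM without TMM scaling, the cluster led by Car4 and Rgcc held 1.53, 0.415, 0.799 and 1.53 of the Hspa1 pair and then 45.3 and 115. The cluster led by Kirrel3, Col13a1 and Vegfc held 1.72, 1.56, 1.51 and 3.17 and then 105 and 144. Gja5 and Sema3g led a cluster with 18.0, 2.53, 8.66 and 3.38 and then 54.3 and 18.1, the latter on 2 UMIs, the only endothelial cluster named here whose groups nearly met. Among cardiomyocytes, the cluster led by Mylk4 held 0.250, 0.245, 0.114 and 0.581 and then 5.10 and 3.58. A cluster led by Ryr3 and the natriuretic peptide genes Nppa and Nppb held 0, 0, 0 and 2.06 and then 15.3 and 3.87. That cluster held 39, 23, 80 and 160 nuclei of the control-diet libraries and 682 and 478 of R403Q-EMPA, so the make-up of the class differed between groups. The fibroblast cluster led by Cilp and Postn held 40, 30, 21 and 45 nuclei on control diet and 428 and 95 in R403Q-EMPA. An endothelial cluster led by Nr5a2, Btnl9 and Sox17 held 94, 189, 283 and 254 and then 926 and 179. The part of these shifts in the class values was not tested.

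R403Q-CD was compared with WT-CD to ask whether the mutation alone moved the chaperones. This comparison did not choose the genes, although it shares the R403Q-CD libraries with the one that did. Of the 100 pairs of gene and class, 88 passed the low-count filter, which removed members of small classes and myeloid Hspa1b. The filter used all 6 libraries, so Hspa1 pairs with few counts on control diet could pass on their R403Q-EMPA counts. Such pairs are included in the numbers that follow. The log2 difference was positive in 68 and negative in 20, with a median of 0.27. In edgeR's quasi-likelihood test 0 pairs were called at an adjusted p below 0.05, where 0.0169% of all pairs were called either way. DESeq2 called 2, as did edgeR without WT-CD replicate 1. With no filter on low counts edgeR called 4, and with no mitochondrial filter 5. At an unadjusted p below 0.05 there were 17 of 88 pairs, all positive, beside 4308 of 100394 over all genes in either direction. Of the 17, 6 were in cardiomyocytes and 5 in pericytes.

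In cardiomyocytes Hsph1 differed by 1.13 ± 0.22 (edgeR adjusted p = 0.125) and Hspa8 by 0.85 ± 0.17 (adjusted p = 0.132). Hspa8 read 68.4 and 73.4 CPM in WT-CD and 148 and 111 in R403Q-CD, and Hsph1 9.16 and 8.20 against 19.4 and 19.9, without overlap in either gene. Over all classes both R403Q-CD libraries lay above both WT-CD libraries for Hspa8 in 7, for Hsph1 in 6 and for each other member in 1 to 4, and below them for Hspa1b, Hspa4l and Dnaja1 in 1 each, where 15.5% of all gene and class pairs lay above and 15.7% below. Hsp90aa1 differed by 0.64 ± 0.19 and Hsp90ab1 by 0.59 ± 0.20, neither past the threshold. Cardiomyocyte Hspa4l did not share this sign (-0.09 ± 0.16). In pericytes 10 of 10 members were positive, the largest well-counted difference being Dnaja1 at 0.71 ± 0.19 (edgeR adjusted p = 1.00). Of the 17 calls over all genes 13 were in cardiomyocytes, among them the stress-induced transcription factor gene Atf3 (2.51 ± 0.23, adjusted p = 0.0134).

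The wider chaperone network, 65 genes in 9 lists, was not used to pick the members and was tested in all 3 comparisons. These lists were themselves chosen with earlier results of these data known. The shares over all genes given beside them are therefore a reference only. Of 492 pairs of gene and class, 34 rose and 0 fell in R403Q-EMPA against R403Q-CD, or 16 genes, where 0.246% of all pairs were called higher and 0.119% lower. Against WT-CD, 62 pairs of 24 genes rose and 0 fell, where 0.742% of all pairs were called higher and 0.676% lower. Both comparisons share the R403Q-EMPA libraries. Between R403Q-CD and WT-CD edgeR and DESeq2 each called 0 pairs, and 26 had an unadjusted p below 0.05 in edgeR, beside the 4308 of 100394 over all genes. With no filter on low counts edgeR called 4 pairs there, and with no mitochondrial filter 13. The medians of the 492 log2 differences were 0.37, 0.39 and 0.02. The count against R403Q-CD rested on each library of the contrast. It was 3 without R403Q-CD replicate 2, 9 without R403Q-CD replicate 1, 11 without R403Q-EMPA replicate 1 and 19 without R403Q-EMPA replicate 2, and it was 80 and 82 without a WT-CD library. The count against WT-CD was 111 without WT-CD replicate 1 and 28 to 49 without any other library. The pericyte calls of Ahsa2, Stip1 and Chordc1 against R403Q-CD held under all 14 alternatives, and the other calls of that comparison named below were each lost under at least 1.

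**Figure D5:**
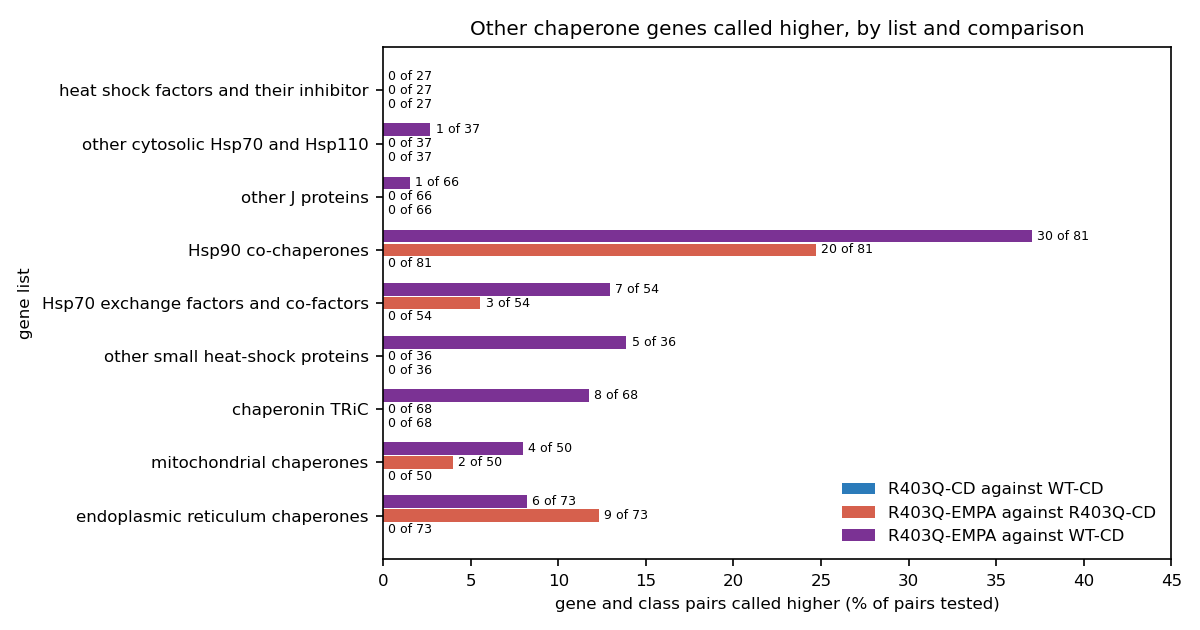
Share of gene and class pairs called higher in each of 9 lists of other chaperone genes, as a percentage of the pairs tested, with 1 bar per comparison. Labels give the number called of the number tested. Hsp90 co-chaperones lead with 20 of 81 against R403Q-CD and 30 of 81 against WT-CD, and no pair is called between R403Q-CD and WT-CD.

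Hsp90 co-chaperones, which load clients or set the ATP cycle of Hsp90, gave 20 of the 34 calls against R403Q-CD and 30 of the 62 against WT-CD, with 81 pairs tested. Ahsa2, an activator of the Hsp90 ATPase, rose in pericytes by 1.68 ± 0.17 (edgeR adjusted p = 9.71e-05), from 56.8, 65.5, 56.5 and 45.4 CPM to 165 and 152. It also rose in endothelial cells by 1.74 ± 0.13. Stip1, which joins Hsp70 to Hsp90, rose in pericytes by 1.96 ± 0.20 (21.9, 18.0, 28.5 and 23.1, then 95.0 and 103 CPM). Chordc1 rose in pericytes by 1.47 ± 0.15 (69.1, 73.2, 97.1 and 89.9, then 238 and 264). These calls were not limited to pericytes. Ahsa2 was also called against R403Q-CD in cardiomyocyte, myeloid, endocardial and fibroblast cells (0.96 to 1.35). Stip1 was also called in endothelial, fibroblast, endocardial and cardiomyocyte cells (1.31 to 2.03), and Chordc1 in endothelial, myeloid, fibroblast and cardiomyocyte cells (0.94 to 1.54).

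Among Hsp70 cofactors, 3 of 54 pairs rose against R403Q-CD. St13 rose in pericytes (1.01 ± 0.16) and endothelial cells (1.09 ± 0.17), and Bag3, an exchange factor that links Hsp70 to small heat-shock proteins, rose in pericytes (1.01 ± 0.18). Of the mitochondrial chaperones 2 of 50 pairs rose, the chaperonin partners Hspd1 (1.36 ± 0.18) and Hspe1 (1.40 ± 0.25) in pericytes. Hspd1 and Hspe1 held the 3-unit element in their promoter windows, as did Chordc1 and Dnajb6, 4 of 55 pathway genes with a window. Over all genes with a window the share was 0.662%. The 2-unit element was found in 17 of the 55 and in 17.0% of all genes with a window.

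Endoplasmic reticulum chaperones gave 9 of 73 calls against R403Q-CD and 6 against WT-CD. In fibroblasts Hyou1, an Hsp110 relative of that compartment, rose by 1.53 ± 0.20 and Pdia4 by 1.61 ± 0.25, and in pericytes Hsp90b1 rose by 1.00 ± 0.17 and Calr by 1.21 ± 0.21. Fibroblast Hsp90b1 was at 259 and 165 CPM for WT-CD, 148 and 175 for R403Q-CD, then 384 and 413 for R403Q-EMPA. Hsf1 itself differed by -0.44 to 0.27 from R403Q-CD in the 7 classes where it was tested, with an edgeR adjusted p of at least 0.461. In edgeR 5 lists had no call against R403Q-CD. At an unadjusted p below 0.05 they had 2 of 27 pairs for the heat-shock factors, 5 of 37 for the other Hsp70 and Hsp110 genes, 13 of 66 for the other J proteins, 3 of 36 for the other small heat-shock proteins and 29 of 68 for the TRiC chaperonin, beside 9758 of 100394 over all genes.

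Against WT-CD the TRiC chaperonin, which folds actin and tubulin, gave 8 of 68 calls, led by Cct3 in pericytes (1.32 ± 0.20). The other small heat-shock proteins gave 5 of 36, among them Cryab in cardiomyocytes (1.45 ± 0.18) and Hspb7 in fibroblasts (0.93 ± 0.17). There was 1 call each for Hspa1l in cardiomyocytes (2.06 ± 0.32, edgeR adjusted p = 0.0103) and Dnaja4 in endocardial cells (1.17 ± 0.27, adjusted p = 0.0472). For each of these named pairs both R403Q-CD libraries lay above WT-CD and below R403Q-EMPA. Fibroblast Hspb7 read 20.3, 15.4, 28.2 and 29.1 CPM on control diet, then 33.8 and 33.4. Cardiomyocyte Cryab read 119, 83.8, 163 and 153, then 292 and 267. For R403Q-CD against WT-CD, 10 of the 36 small heat-shock protein pairs had an unadjusted edgeR p below 0.05. The median log2 difference of the 36 was 0.43, and edgeR called 0. The calls of Cct3 and Cryab held under all 14 alternatives. Dnaja4 lost its call under 11 of them, Hspb7 under 7 and Hspa1l only without R403Q-EMPA replicate 1. Hspa1l neighbours the Hspa1 genes and is closely related in sequence, and whether reads were shared between them was not tested. By class, the calls against R403Q-CD were 12 of 59 pairs in pericytes, 7 of 63 in fibroblasts, 5 of 62 in endothelial, 5 of 58 in endocardial, 3 of 64 in cardiomyocyte and 2 of 54 in myeloid cells. The 4 smallest classes had 0. Over all genes of the same class, 47 of 11886 were called higher in pericytes, 46 of 15066 in fibroblasts, 27 of 14047 in endothelial, 88 of 11532 in endocardial, 16 of 14361 in cardiomyocyte and 4 of 10808 in myeloid cells, so the classes differ in how many genes they call.

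Across the 60 values of 6 libraries and 10 classes, each class centred on its own mean, the genes whose log2(CPM + 1) pattern was most like that of the Hspa1 pair were Hspa4l (Pearson r = 0.89), P4ha1 (0.86), Dnaja1 (0.85), Hsp90ab1 (0.84) and Hsp90aa1 (0.84), among 2884 genes that passed the filter in all classes. The points share libraries, and with 2 R403Q-EMPA libraries the likeness mostly describes the contrast that picked the members. P4ha1, a subunit of the collagen prolyl hydroxylase, was not on any list.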

How the data were processed

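Nuclei from left ventricle were profiled by droplet single-nucleus RNA sequencing in 6 libraries, 2 per group. Per the submitters' processing notes, the authors used Cell Ranger 8.0.1 and GRCm39. The deposited values are raw UMI counts per gene and barcode, and every file belongs to 1 library. Barcodes with at least 500 UMIs, 300 genes and at most 5% mitochondrial UMIs were kept. Predicted doublets (3.68% to 6.45% of the barcodes of a library that passed these filters) were then removed with scanpy 1.11.5. Nuclei were clustered on 2000 variable genes, 30 principal components and 15 neighbours (Leiden resolution 1), leaving out the members and the pathway lists. Of 25 clusters 24 took a class from fixed markers (at least 3 at 2-fold in 10% of nuclei), and 1 of 41 nuclei stayed unnamed. Schwann-like nuclei (61) were too few to test, under 20 nuclei in a library.

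Counts were summed per library and class. Groups were compared in edgeR 4.0.16 (R 4.3.3), quasi-likelihood test, TMM scaling, filterByExpr, 1 fit per class over all 6 libraries, with Benjamini-Hochberg adjustment over all genes of the class. Base levels used 1 fit over the 4 control-diet libraries with class and library as terms. Replicates differed by more than sampling noise (chi-square per degree of freedom of 54.8, 7.75 and 41.3), so no pair was treated as repeat deposits of 1 library, which does not show that they came from separate animals. Ratios use means of scaled CPM, with counting intervals at 95%. A ratio to 0 counts uses a floor of 3 counts over the group. DESeq2 1.42.0 and the other alternatives appear in the closing section.

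The members and gene lists were chosen with earlier results of these data known. Named were all members, at most 4 called pathway genes per list and comparison by p, Hsf1, and the 5 genes most like the Hspa1 pair. Promoters came from the RefSeq table, loci from GENCODE. Protein sequences were not used here.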

Additional observations from a re-analysis of the deposited data

Results flagged for a closer look

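In 3 genes the R403Q-CD libraries lay on opposite sides of the WT-CD libraries in different classes, and the difference between the classes was not tested. Such opposite sides were found in 48.5% of the 2884 genes that passed the low-count filter in all classes. Dnaja1 was above WT-CD in both R403Q-CD libraries in pericytes (log2 ratio of means 0.73), smooth muscle (0.58), myeloid (0.63) and lymphoid cells (0.73), and below it in epicardial cells (-0.56). Hspa4l was above in lymphatic endothelial (0.28) and below in lymphoid cells (-0.23). Hspa1b was above in endocardial cells (2.74) and pericytes (1.14) and below in cardiomyocytes (-1.21), on very few UMIs (0 and 1 against 3 and 2 in endocardial cells, 1 and 1 against 1 and 0 in cardiomyocytes).

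The Hspa1 pair was also higher in R403Q-EMPA among barcodes that entered no comparison, in CPM without TMM scaling. Barcodes over the mitochondrial limit held 43.2 and 55.6 CPM in the R403Q-EMPA libraries and 1.64 to 3.18 in the control-diet libraries. The sum of the 10 members in these barcodes was 886 and 874 CPM for WT-CD, 1923 and 1595 for R403Q-CD and 2705 and 2276 for R403Q-EMPA, so there R403Q-CD also lay above WT-CD. Predicted doublets held 32.5 and 33.7 against 0.400 to 1.81. Among Schwann-like nuclei, R403Q-EMPA replicate 1 held 290.0 CPM (8 UMIs in 8 nuclei), while replicate 2, with 3 nuclei, and the control-diet libraries held 0 UMIs.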

How the results depend on the processing

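Over 230 results and 3125 alternatives, 2703 kept direction and side of the threshold or moved by less than the replicate spread, 323 lost a call, 26 gained one, 71 moved and 2 reversed, the cause of each being not tested. The reversals, both without the mitochondrial filter, were the base levels of cardiomyocyte Hsp90aa1 (0.14) and Hsp90ab1 (0.69). Members called between R403Q-CD and WT-CD numbered 0, and 2 with DESeq2, 4 with no filter on low counts, 5 with no mitochondrial filter and 0 to 2 leaving out a library. Pathway pairs called there were 0, with 4, 13 and 0 to 3 under the last 3 of these. Against R403Q-CD the 34 pathway calls became 56 (DESeq2), 89 (no low-count filter), 20 (no mitochondrial filter) and 3 to 82 leaving out a library, with 80 and 82 without a WT-CD library. Against WT-CD the 62 became 114 with no low-count filter and 28 to 111. The 37 base calls stayed at 30 to 37.

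The median rise of the Hspa1 pair, 3.73, was 2.94 to 3.94 leaving out a library. That of the other members, 1.23, was 1.26 (DESeq2), 1.28 (no TMM), 1.18 (no doublet removal), 1.20 (Leiden resolution 0.5) and 1.12 to 1.32. For the Hspa1 pair by class, leaving out a library gave 2.82 to 4.66 in cardiomyocytes, 3.79 to 4.26 in endocardial, 5.41 to 6.01 in endothelial, 1.95 to 2.86 in epicardial, 2.84 to 3.40 in fibroblast, 2.23 to 2.51 in lymphatic endothelial, 3.10 to 5.30 in myeloid, 2.72 to 2.94 in pericyte and 2.96 to 3.94 in smooth muscle cells. The extremes of over 1.5 times came without R403Q-CD replicate 2 (4.66 in cardiomyocytes, 5.30 in myeloid and 1.95 in epicardial cells), without R403Q-CD replicate 1 (3.14, 3.10 in cardiomyocytes and myeloid cells, 2.96 in smooth muscle) and without R403Q-EMPA replicate 1 (2.82 in cardiomyocytes). Epicardial cells without R403Q-CD replicate 1 and smooth muscle without R403Q-CD replicate 2 gave no ratio. Keeping doublets gave 4.10 in endocardial, 2.92 in epicardial, 2.18 in lymphatic endothelial, 3.03 in pericyte and 3.95 in smooth muscle cells. No mitochondrial filter gave 3.39 in epicardial and 2.49 in lymphatic endothelial cells. DESeq2 size factors, no TMM, at least 1000 UMIs, Leiden resolution 0.5 and members among the clustering genes gave 2.86, 2.88, 2.88, 2.87 and 2.87 in epicardial and 3.98, 3.95, 3.95, 4.73 and 4.75 in smooth muscle cells. On the share of thinned nuclei with a UMI the log2 ratio was 5.10 in endothelial, 3.96 in fibroblast and 0.36 in smooth muscle cells.

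Of 37 base calls under 444 alternatives 382 held, and of 81 named pathway calls under 1134 alternatives 880 held. No paired analysis was possible because the labels give the groups no shared replicate numbers and tie no libraries to a shared animal, litter or day. With 2 libraries a group and under 60 nuclei of smooth muscle cells in each, depth limits the small classes most.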
